A study of Mus musculus with 12 samples.

Results

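Tumors of P815-IFNG cells were compared with tumors of P815-M cells, both from mice kept under blue light. The comparison holds 6 of the 12 RNA-seq libraries of the single-tumor experiment, with 3 tumors per group and 1 tumor per mouse. P815 is a mast cell tumor line of DBA/2 mice. P815-IFNG is a single-cell clone that carries 3 inserts: GAVPO, a light-sensing activator expressed from the EF-1α promoter together with a blasticidin resistance gene; a UAS-driven cassette of murine Ifng, murine Cxcl10 and a secreted luciferase; and an mRuby and firefly luciferase marker. P815-M is another single-cell clone that carries the mRuby and firefly luciferase marker alone. Cells were injected under the skin of DBA/2 mice of both sexes, 8 to 10 weeks old, and grew for 7 days before 6 days of illumination for 12 h per day. Since each line is 1 clone, the effect of the inserts, the effect of the cytokines and any other difference between the clones cannot be told apart in this comparison. Of 32288 rows per library, 18804 genes were tested over all 12 libraries, and 16944 were tested over 10 libraries after the deep libraries described next were left out.

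The libraries are of 2 kinds. P815-IFNG light 1 and light 2 and the 3 P815-M libraries held 2211234 to 2500278 counts and are called shallow here. P815-IFNG light 3 held 41473500 counts and is called the deep library. These names refer to counts assigned to genes, since the labels used here do not give the number of reads sequenced. They do not describe the other differences between the kinds, which are given next. Mt-Nd6, the mitochondrial coding gene read from the opposite strand to the others, took 3.56% of the mitochondrial coding counts in the deep library (95% Wilson interval 3.54 to 3.59%) and 40.5 to 47.9% in the other 5. Log2 CPM correlated at 0.931 to 0.970 across genes among those 5 libraries and at 0.198 to 0.332 between the deep library and each of them, where genes are not independent replicates. The other deep library was 1 of the P815-IFNG tumors kept in the dark. Calls and list medians are therefore given without the deep libraries (2 P815-IFNG against 3 P815-M tumors in light) and with them (3 against 3), where the median over all tested genes was -0.00096 and 0.147 on the log2 scale. For single genes the CPM of the deep library stands last among the P815-IFNG values, and log2 fold changes are those without it unless said otherwise. CPM are counts scaled to library size with TMM factors, and 3 counts are worth 1.21 to 1.56 CPM in the 5 shallow libraries and 0.0694 CPM in the deep one. The strand whose reads were counted was not tested in either kind. The CPM of a single gene are therefore not known to come from its own strand.

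Interferon gamma is a cytokine of T and NK cells that binds a receptor on nearly all cells and switches on genes of antigen presentation and of defence against intracellular pathogens. Among its targets are 2 families of large GTPases, the guanylate-binding proteins (GBPs) and the immunity-related GTPases (IRGs), which attack the vacuoles of intracellular microbes. Cxcl10 is a chemokine that recruits activated T cells through Cxcr3. The promoters of such targets often hold an interferon-stimulated response element (ISRE) or a gamma-activated site (GAS). In GAVPO, the GAL4 DNA-binding domain pairs under blue light, binds UAS and activates the gene behind it.

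Stretches of 30 bases from promoters of these GTPases are shown because these families are known targets of interferon gamma and are described below. The sequences are from RefSeq on GRCm38.p6, in the 5′ to 3′ direction of the gene, with the searched motif in capitals (ISRE as GAAA, NN, GAAA and GAS as TTCNNNGAA, each searched on both strands).
Gbp2, ISRE, chr3:142620594-142620623, plus strand: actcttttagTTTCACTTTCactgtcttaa
Gbp5, ISRE, chr3:142496759-142496788, plus strand: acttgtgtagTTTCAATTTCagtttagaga
Gbp7, ISRE, chr3:142530273-142530302, plus strand: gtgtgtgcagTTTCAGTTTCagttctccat
Irgm1, ISRE, chr11:48871425-48871454, minus strand: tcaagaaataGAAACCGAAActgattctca
Igtp, GAS, chr11:58199501-58199530, plus strand: aactagccatTTCTAGGAActgaaactgaa
Irgm2, GAS, chr11:58214892-58214921, plus strand: aactagccatTTCCAGGAActgaaactgaa
Tgtp2, GAS, chr11:49064274-49064303, minus strand: agctagccatTTCCAGGAAtcgaaaccgaa
In Igtp, Irgm2 and Tgtp2 an ISRE begins just after the GAS shown. Promoter windows from 250 bases before to 50 after the start were found for 5 of 11 GBPs and 7 of 10 IRGs. An ISRE was present in all 5 GBPs and in 6 of the 7 IRGs, against 3.99% of 27025 genes with a window. A GAS was present in 2 of the 5 GBPs and 5 of the 7 IRGs, against 9.55% of genes.

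The knock-in sequences were the first check of the labels. GAVPO_bla, the activator with its resistance gene, stood at 454, 507 and 1338 CPM in P815-IFNG light 1, 2 and 3, against 0, 0 and 0.894 CPM in P815-M. The P815-IFNG and P815-M libraries were far apart, with 2169 counts in the 2 shallow P815-IFNG libraries and 2 counts in all P815-M libraries (ratio 1495, 95% counting interval 413 to 12349). The Ifng and Cxcl10 cassette was read at 4.42, 2.93 and 5.28 CPM in P815-IFNG and at 0 in every P815-M library. Its mean in P815-IFNG was 7.66-fold a floor of 3 counts over the P815-M group without the deep library, and 8.77-fold with it. On 17 counts in the 2 shallow P815-IFNG libraries, the lower limit of the 95% counting interval of the ratio was 5.69. The mRuby and luciferase marker, which both clones carry, stood at 80.0, 117 and 165 CPM in P815-IFNG and at 54.0, 40.7 and 41.6 CPM in P815-M, a ratio of 2.14 (1.84 to 2.49) without the deep library. Each knock-in was higher in every P815-IFNG library, and the exact permutation test gave p = 0.1 for 3 against 3 libraries, the smallest p this design allows (0.2 for 2 against 3). Of the 3, GAVPO_bla was called by the model across genes and the other two were not. These intervals cover the error of counting and nothing else, and the floor covers that of the P815-M counts alone.

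The endogenous symbols of the cytokines, to which cassette reads may also have been assigned, did not separate the groups. Ifng stood at 14.9, 1.95 and 1.76 CPM in P815-IFNG and at 2.08, 0.479 and 1.79 CPM in P815-M. Cxcl10 stood at 39.01, 7.32 and 2.45 CPM in P815-IFNG and at 8.31, 0.479 and 3.58 CPM in P815-M. For both genes P815-IFNG light 1 was the highest library and the groups overlapped. The log2 fold changes without the deep libraries were 2.53 for Ifng (adjusted p = 0.314) and 2.52 for Cxcl10 (adjusted p = 0.188, both by the edgeR model), and neither was called.

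Without the deep libraries, 23 genes rose (0.136% of 16944 tested) and 16 fell (0.0944%) in P815-IFNG, where a call needed a change of 1 or more on the log2 scale and an edgeR adjusted p no higher than 0.05. With all 12 libraries, Pex16, Gcsam and GAVPO_bla rose (3 genes, 0.016% of 18804) and 0 fell, with 1276 genes at an unadjusted p under 0.05 and 41 genes called by DESeq2. The deep library, which did not enter these calls, lay above every P815-M library for 19 of the 23 risen genes, where 44.7% of all tested genes did, and below every P815-M library for the 16 fallen genes, where 35.2% did. These counts are a description, since the genes were called on the same P815-M libraries and 10 of the 16 fallen genes are non-coding genes with low values in the deep library. The 39 genes had the same signs with all 12 libraries, which is no independent evidence, since that fit holds the libraries of the calls. Hecw1 was then at 8.22 (adjusted p = 0.363), Large2 at 4.22 (adjusted p = 0.629), Akr1c12 at 5.58 (adjusted p = 0.363), Per1 at 1.57 (adjusted p = 0.629), Adamts13 at 0.72 (adjusted p = 0.792) and A730032A03Rik at -7.13 (adjusted p = 0.203). The 4 risen genes for which it lay below were 1700047F07Rik, Vsig2, Zfp704 and Adamts13.

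**Figure D1:**
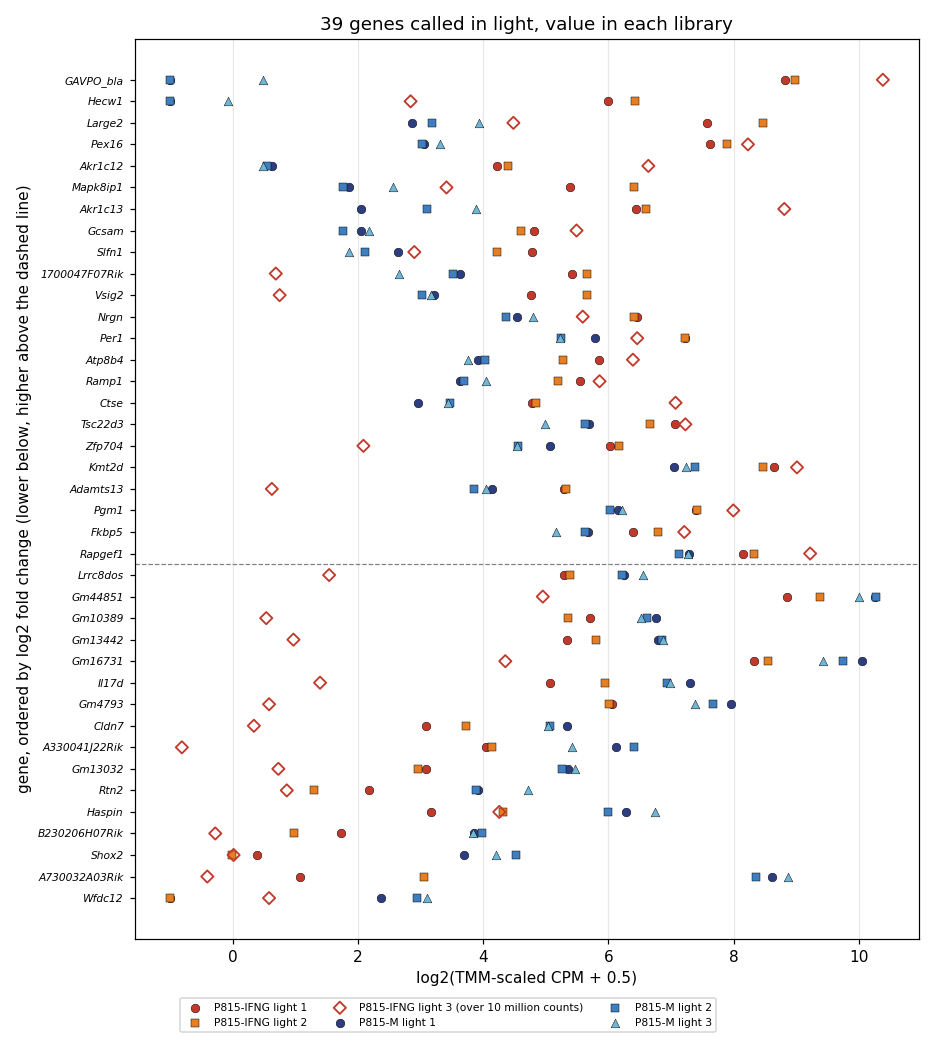
Log2(CPM + 0.5) (horizontal) of the 39 genes called without the deep libraries (vertical, ordered by fold change), with a symbol for each of the 6 light libraries and the deep library as an open diamond. Pex16 lies at 196 to 300 CPM in P815-IFNG and at 7.66 to 9.39 CPM in P815-M, while Hecw1 and Large2 lie at 6.67 and 21.9 CPM in the deep library.

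A run of neighbouring genes on chromosome 2 held 3 of the largest rises. Pex16, a peroxisome membrane protein needed for peroxisome assembly (chr2:92374676-92381217, plus strand), stood at 196, 238 and 300 CPM in P815-IFNG and at 7.79, 7.66 and 9.39 CPM in P815-M, with a log2 fold change of 4.70 (SE 0.22, adjusted p = 6.47e-09). Large2, a glycosyltransferase that extends sugar chains on dystroglycan (chr2:92365046-92374869, minus strand), stood at 191, 353 and 21.9 CPM against 6.75, 8.62 and 14.8 CPM (log2 fold change 4.73, SE 0.32). Mapk8ip1, a scaffold of the JNK kinase pathway (chr2:92383676-92401263, minus strand), stood at 41.4, 84.4 and 10.2 CPM against 3.11, 2.87 and 5.37 CPM (4.02, SE 0.40). Every P815-IFNG library exceeded every P815-M library for all 3 genes, with the deep library lowest for Large2 and Mapk8ip1 and highest for Pex16. Exons of Pex16 and Large2 overlap on opposite strands by 127 bases, and the part of this overlap in the result was not tested. Other genes within 100 kb were not called, among them Cry2 (log2 fold change -0.03), Phf21a (-0.05) and Slc35c1 (0.13).

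On chromosome 13, Hecw1, a HECT-type ubiquitin ligase (chr13:14226438-14523228), stood at 63.5, 85.4 and 6.67 CPM in P815-IFNG and at 0, 0 and 0.447 CPM in P815-M. The P815-M group held 1 count, against 333 in the 2 shallow P815-IFNG libraries (ratio 459, counting interval 81.8 to 18180). Its neighbours Arid4b and Psma2 had log2 fold changes of -0.20 and 0.10 and were not called. On the same chromosome the aldo-keto reductases Akr1c12 and Akr1c13, enzymes that reduce steroids and other carbonyls, both rose. Akr1c12 stood at 18.1, 20.5 and 99.2 CPM against 1.04, 0.958 and 0.894 CPM (log2 fold change 4.26, SE 0.44, adjusted p = 2.94e-04). Akr1c13 stood at 86.5, 96.6 and 449 CPM against 3.63, 8.14 and 14.3 CPM (3.36, SE 0.32, adjusted p = 4.63e-05). For both, the deep library was highest and the groups did not overlap. Akr1c19, which lies between them, had a log2 fold change of 3.79 (SE 0.84) and was not called (adjusted p = 0.0828). The family members are near-identical, and how reads were split among them is uncertain.

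Among the other risen genes, Gcsam, a signalling adaptor of germinal-centre B cells, stood at 27.8, 23.9 and 44.5 CPM against 3.63, 2.87 and 4.02 CPM (log2 fold change 2.87, SE 0.33). Slfn1, a schlafen protein of lymphoid cells, stood at 26.9, 18.1 and 6.97 CPM against 5.71, 3.83 and 3.13 CPM (2.42, SE 0.40), and its neighbours Slfn2 (2.08, adjusted p = 0.139) and Slfn8 (1.18, adjusted p = 0.105) were not called. Ramp1, a partner of the calcitonin-receptor-like receptor, rose by 1.61 (SE 0.28), Atp8b4, a phospholipid flippase, by 1.74 (SE 0.28), and the protease Ctse by 1.55 (SE 0.27). Nrgn, a calmodulin-binding protein, stood at 87.7, 84.4 and 47.7 CPM against 22.8, 20.1 and 27.3 CPM (1.88, SE 0.30), and Vsig2, whose 3′ end lies 287 bases from that of Nrgn, rose by 2.18 (SE 0.36) although the deep library held 1.18 CPM. Of the metabolic and chromatin genes, Pgm1, which interconverts glucose phosphates, rose by 1.28 (SE 0.17) and Kmt2d, a histone methyltransferase, by 1.33 (SE 0.19), and in both the P815-IFNG and P815-M libraries did not overlap.

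Per1, a repressor of the circadian clock, stood at 148, 149 and 87.6 CPM in P815-IFNG and at 55.0, 37.3 and 37.1 CPM in P815-M, and rose by 1.79 (SE 0.20, adjusted p = 2.94e-04). The lowest P815-IFNG library exceeded the highest P815-M library. Per1 is also induced by glucocorticoids, as are Tsc22d3 (133, 101 and 150 CPM against 51.4, 48.8 and 31.3 CPM; log2 fold change 1.43, SE 0.23) and Fkbp5 (84.1, 110 and 148 CPM against 50.9, 48.8 and 35.3 CPM; 1.11, SE 0.21), which were called too. On a list of 22 glucocorticoid-induced genes compiled after these values were seen, 15 of the 21 tested had a positive log2 fold change, with a median of 0.47 without the deep libraries and 0.75 with them. In the dark the medians of the list between the clones were larger, at 1.05 and 1.26 in the same order. This list was chosen on these libraries, so its counts are no independent evidence. Of the 17 clock genes tested, 11 were positive and Per1 was the single member called. The clock median was 0.079, and it was 0.41 without P815-IFNG light 1, -0.064 without light 2, 0.21 without P815-M light 1, 0.23 without P815-M light 2 and 0.55 with all 12 libraries, where 0 were called. Nr1d2, a nuclear receptor of the clock, stood at 12.5, 17.1 and 28.1 CPM against 2.60, 4.79 and 4.47 CPM (1.88, SE 0.44, adjusted p = 0.0952). The promoter windows of Per1 and Fkbp5 each hold a CACGTG E-box, the letters bound by the clock activators. They were the 2 of 16 risen genes with a window (12.5%) that hold it, near the 8.09% of all genes.
Per1, E-box, chr11:69098771-69098800, plus strand: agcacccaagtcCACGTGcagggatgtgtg
Fkbp5, E-box, chr17:28486301-28486330, minus strand: gcaagggccagaCACGTGggcagcggtgaa
A glucocorticoid element (ACANNNTGT) was in 0 of the 16 risen genes with a window, where 7.90% of genes hold one. The GAL4 site, searched as CGG and CCG with 11 bases between them, was in 3 of those 16 (Nrgn, Per1 and Rapgef1), where 10.6% of genes hold one. A GAS was in 4 of the 16 and an ISRE in 0. These letters match or do not match within these windows, and nothing about the factors follows from them.

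The 16 fallen genes held 6 protein-coding and 10 non-coding genes, and the share of non-coding genes among all tested genes was not counted. A730032A03Rik, a non-coding transcript on chromosome 2, stood at 1.61, 7.81 and 0.255 CPM in P815-IFNG and at 393, 327 and 469 CPM in P815-M (log2 fold change -6.45, SE 0.53, adjusted p = 7.89e-06). Wfdc12, a protease inhibitor, overlaps it by 125 bases of exon on the opposite strand. Wfdc12 had 0 counts in the 2 shallow P815-IFNG libraries and 43 in the deep one, against 42 counts in P815-M. Without the deep library, its pooled P815-M level was 10.2-fold a floor of 3 counts over the 2 shallow P815-IFNG libraries. The lower limit of the counting interval of the ratio of P815-M over P815-IFNG was 7.90. Shox2, a homeobox factor of limb and heart development, stood at 0.804, 0.488 and 0.509 CPM against 12.5, 22.5 and 17.9 CPM, a ratio of 26.8 (counting interval 8.95 to 132) on 3 counts in the shallow P815-IFNG libraries. Haspin, the kinase that marks histone H3 in mitosis, stood at 8.45, 19.5 and 18.6 CPM against 77.3, 63.2 and 107 CPM (-2.59, SE 0.37), and Itgae, within whose span it lies on the other strand, had a log2 fold change of -1.93 (SE 0.41, adjusted p = 0.0701). Il17d, a cytokine of the interleukin-17 family, fell by 1.53 on the log2 scale (SE 0.26), Cldn7, a tight junction protein, by 1.76 (SE 0.33) and Rtn2, a reticulon of the endoplasmic reticulum, by 2.56 (SE 0.47).

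The 10 fallen non-coding genes held 0.0694 to 30.5 CPM in the deep library and 1.46 to 1233.5 CPM over the other 5. Opposite-strand exons of at least 100 bases overlapped 10 of the 16 fallen genes and 4 of the 23 risen genes, against 27.65% of all tested genes. Of their partners, Coro2a (log2 fold change -1.01, adjusted p = 0.0640), Nav1 (-0.94) and Furin (-0.48) were not called. The part of the strand difference between library kinds in these genes was not tested, nor was the strand from which their reads came. The fall of Gm13032 (8.04, 7.32 and 1.16 CPM against 40.5, 37.8 and 43.8 CPM; -2.39, SE 0.27) was called without each library in turn.

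Most genes lost the call in some fit with a light library left out, which also leaves fewer tumors to compare. A lost call alone therefore does not show that a single tumor set the value. With each shallow light library left out in turn, the log2 fold change ran from 1.228 to 1.395 in Adamts13 and from -3.207 to -2.163 in Rtn2. Leaving out each of the 5 shallow light libraries in turn gave 17 to 32 calls, the fewest without P815-IFNG light 1, and 11 risen and 3 fallen genes were called in each of the 5 fits: GAVPO_bla, Hecw1, Large2, Pex16, Akr1c12, Mapk8ip1, Akr1c13, Gcsam, 1700047F07Rik, Per1, Pgm1, Gm13032, Shox2 and A730032A03Rik. The same 14 were called under each of the 12 alternatives of this fit. Kmt2d and Haspin lost the call only without P815-IFNG light 1. A330041J22Rik and B230206H07Rik lost it without either P815-IFNG library, and Tsc22d3 without P815-IFNG light 1 or P815-M light 2. Slfn1 lost it without P815-IFNG light 1, P815-M light 2 or light 3. Ctse, Adamts13, Fkbp5, Lrrc8dos, Gm10389, Gm13442, Cldn7, Rtn2 and Wfdc12 lost it whichever of the 5 was left out. Ramp1 and Il17d lost it without 3 of the 5, and Vsig2, Nrgn, Atp8b4, Zfp704, Rapgef1, Gm44851, Gm16731 and Gm4793 without 4.

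The same clones were compared in the dark, where the inserts were not illuminated. With all 12 libraries, 2 of 18804 genes were called between the clones in the dark, GAVPO_bla and Pex16. The other values of this paragraph are without the deep libraries, where 371 genes were called in the dark (2.19%). Of these, 26 were among the 39 called in light, which is 66.7% of the light calls and 7.01% of the dark calls. These 26 were 15 risen and 11 fallen genes. All 23 risen genes and 15 of the 16 fallen genes had the same sign in the dark, with a median log2 fold change of 1.95 and -1.43 there, where the median of all genes was 0.054. Pex16 had a log2 fold change of 4.66 in the dark, Hecw1 7.90, Per1 1.95 and A730032A03Rik -7.38. Genes called in light and not in dark included Slfn1 (0.76 in dark, edgeR adjusted p = 0.356), Pgm1 (0.55, adjusted p = 0.0859) and Zfp704 (0.52, adjusted p = 0.251). Kmt2d (0.86 in dark, edgeR adjusted p = 0.0266) missed the dark call by its fold change alone. The difference between light and dark itself was called for 0 of the 39 genes (edgeR), with a smallest adjusted p of 0.206, for B230206H07Rik (-2.68 in light and -0.11 in dark), and 13 of the 39 had an unadjusted p under 0.05. Gm13442 was the gene whose sign turned, at -1.26 in light and 0.17 in dark.

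**Figure D2:**
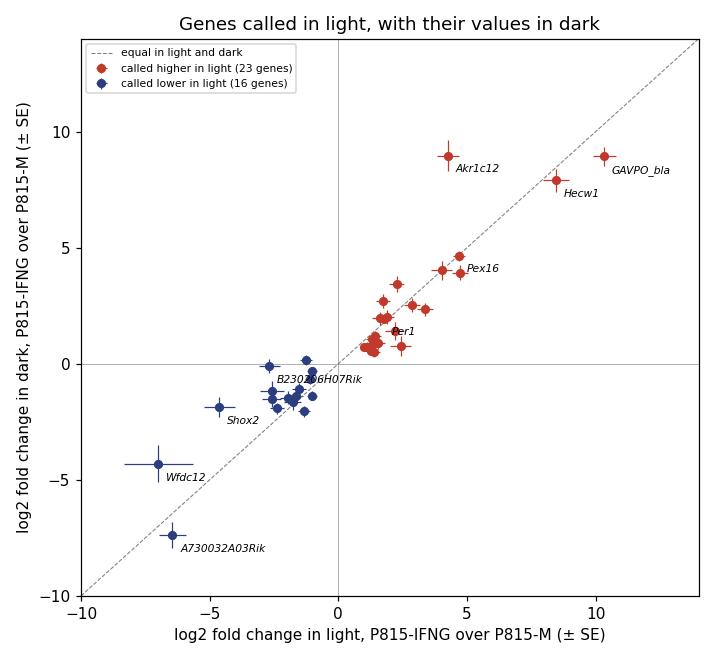
Log2 fold change of P815-IFNG over P815-M in the dark (vertical) against light (horizontal), with standard errors from the model, for the 39 genes called in light without the deep libraries. Akr1c12 lies above the line of equal values and Shox2 and Wfdc12 lie above it among the falls, while Pex16, Hecw1 and Per1 lie close to it.

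The GBPs and IRGs had positive log2 fold changes in P815-IFNG, with 0 genes called. Of 10 GBPs tested, 10 had a positive log2 fold change without the deep libraries, with a median of 1.28, and 7 had an unadjusted p under 0.05 where 5.06% of all genes did. Of 9 IRGs tested, 9 were positive, with a median of 1.47, and 8 had an unadjusted p under 0.05. Summed over the GBPs, P815-IFNG stood at 1010, 339 and 290 CPM and P815-M at 313, 231 and 258 CPM. Summed over the IRGs, P815-IFNG stood at 798, 355 and 341 CPM and P815-M at 260, 173 and 247 CPM. P815-IFNG light 1 was the highest library for both families. Light 2 lay above the P815-M range in both, and the deep library lay within it for the GBPs and above it for the IRGs. All 3 P815-IFNG libraries lay above all P815-M libraries for 2 of the 10 GBPs and 4 of the 9 IRGs, where 9.23% of all genes did, and below them for 0, where 7.71% did.

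**Figure D3:**
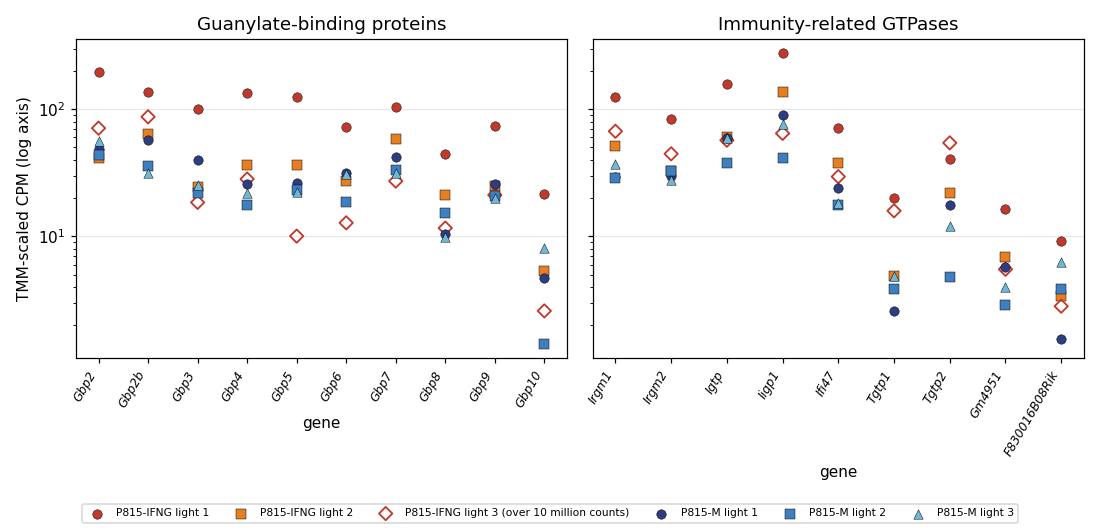
CPM (vertical, log axis) of GBPs and IRGs in each of the 6 light libraries, with a symbol per library and the deep library as an open diamond. P815-IFNG light 1 lies highest in each gene but Tgtp2, as in Gbp4 at 135 CPM against 36.1 and 28.2 CPM in the other P815-IFNG libraries and 17.7 to 26.0 CPM in P815-M.

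The single genes showed this pattern. Gbp4 stood at 135, 36.1 and 28.2 CPM in P815-IFNG and at 26.0, 17.7 and 21.9 CPM in P815-M (log2 fold change 1.99, adjusted p = 0.190). Gbp5, an activator of inflammasomes, stood at 125, 36.1 and 10.05 CPM against 26.5, 22.98 and 22.4 CPM (1.77, adjusted p = 0.117), with the deep library below every P815-M library. Irgm1, a regulator of the other IRGs, stood at 125, 51.7 and 67.0 CPM against 29.1, 28.7 and 37.1 CPM (1.49, adjusted p = 0.303), with no overlap between groups. Ifi47 (1.47, adjusted p = 0.150), Iigp1 (1.58, adjusted p = 0.175) and Igtp (1.07) were not called. Gbp2b stood at 136, 63.9 and 87.1 CPM against 57.1, 35.9 and 31.8 CPM (1.28, adjusted p = 0.431). Paralogs such as Tgtp1 and Tgtp2 share reads and are uncertain.

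Without P815-IFNG light 1, the median log2 fold change of the GBPs was 0.38 with 8 of 10 positive, that of the IRGs was 0.69 with 8 of 9 positive, and 0 members of either had an unadjusted p under 0.05. Without P815-IFNG light 2 the medians were 1.86 for both, with 10 of 10 GBPs and 8 of 9 IRGs at an unadjusted p under 0.05 and 1 GBP called. The call of these families also moved with the model. Without the filter on low totals 8 of the 10 GBPs and 5 of the 9 IRGs were called in the 10 libraries. DESeq2 called 1 GBP and 0 IRGs there, and the fit with a replicate block 1 GBP and 2 IRGs. After adjustment of all 12 libraries with ComBat-seq, the step the study's methods name for these counts, 10 GBPs and 8 IRGs were called, with medians of 2.204 and 2.08 and library kind as the batch, and with the library kind as a batch term 1 GBP and 0 IRGs were called. With all 12 libraries and no such step, the medians were 1.05 and 1.19 against 0.147 over all genes, and 0 GBPs and 2 IRGs had an unadjusted p under 0.05. In the dark, without the deep libraries, the medians between the clones were 1.26 for the GBPs and 1.21 for the IRGs, against 0.054 over all genes.

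**Figure D4:**
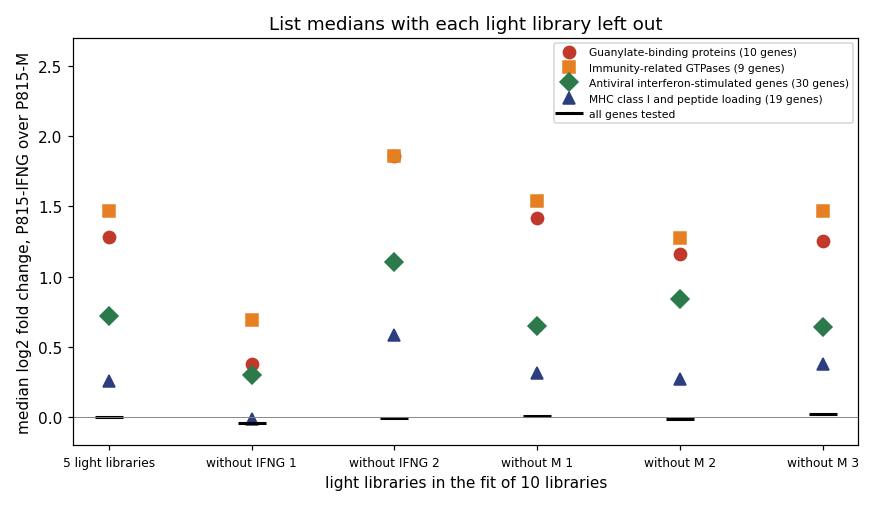
Median log2 fold change of P815-IFNG over P815-M for 4 interferon gene lists and for all genes tested (black bars), in the 5 shallow light libraries and with each of them left out. The GBP median is 1.28 with all 5 and 0.38 without P815-IFNG light 1, and the all-gene bars stay near 0.

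Antiviral interferon-stimulated genes had a median of 0.72 over 30 tested, with 25 positive and 11 at an unadjusted p under 0.05, and a median of 0.30 with 3 such genes without P815-IFNG light 1 and 1.11 with 15 without light 2. The median was 0.65, with 2 such genes, with all 12 libraries. Cmpk2, a nucleotide kinase (2.57, adjusted p = 0.199), Isg15, a ubiquitin-like modifier (1.80, adjusted p = 0.306), and Parp14 (1.27, adjusted p = 0.139) were among the positive members, and 0 were called. An ISRE was present in 13 of the 24 with a promoter window. Of 18 interferon signalling genes 13 were positive, with a median of 0.27 and 0 called, and the median was 0.11 without P815-IFNG light 1 and 0.46 with all 12 libraries. Socs1, the feedback inhibitor of the receptor kinases, stood at 161, 137 and 26.6 CPM against 48.3, 56.5 and 105 CPM (1.09, adjusted p = 0.106), with both shallow P815-IFNG libraries above and the deep library below P815-M. Irf1 had 0.99 (adjusted p = 0.405), Stat2 0.70 (adjusted p = 0.308) and Ifngr2, a receptor chain, -0.98 (adjusted p = 0.215).

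MHC class I and peptide loading genes were positive for 18 of 19 tested without the deep libraries, with a median of 0.26 and 0 called. When the deep libraries were included, 11 of 19 were positive and the median was 0.12, below that of all genes. Psmb8 (0.82), Psmb10 (0.75), both subunits of the immunoproteasome, and Tap1, which carries peptides into the endoplasmic reticulum (0.74), were among its positive members. Without P815-IFNG light 1 the median was -0.013, with 9 of 19 positive, and without light 2 it was 0.59. MHC class II genes had a median of 0.29 over 10 tested, with 0 at an unadjusted p under 0.05, and the sign turned to -0.14 with all 12 libraries. Chemokines and their receptors had a median of 0.55 over 22 tested, checkpoint genes -0.25 over 15, myeloid effectors 0.41 over 11 and acute phase genes 0.12 over 16, with 0 called in each. These 4 medians were 0.66, -0.078, 0.82 and 0.052 with all 12 libraries. Nos2, the inducible nitric oxide synthase, stood at 335, 49.8 and 46.1 CPM against 60.2, 51.2 and 101 CPM (1.46, adjusted p = 0.376), and its value rested on P815-IFNG light 1.

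Stress and growth lists held few calls. Proliferation genes had a median of 0.09 over 22 tested, hypoxia and glycolysis genes 0.15 over 19, heat shock genes 0.047 over 12, immediate early genes 0.23 over 17 and oxidative stress genes -0.22 over 14, with 0 called. With all 12 libraries the medians, in the same order, were 0.78, 0.48, 0.83, 0.29 and 0.27, with 18 of 22 proliferation genes and 10 of 12 heat shock genes positive and 0 called. The summed level of the proliferation genes was 902 to 1301 CPM in the shallow libraries and 3177 CPM in the deep one, and that of the heat shock genes 2453 to 2861 CPM and 8898 CPM. Peroxisome genes had a median of 0.15 over 15, with Pex16 called and no other, and a median of 0.38 with all 12 libraries.

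Markers of the cells a tumor could hold were read the same way, where fewer cells of a type and less RNA per cell cannot be told apart in bulk tumors. Of the mast cell markers, Kit stood at 317 to 440 CPM in the 5 shallow libraries and at 666 CPM in the deep one, while Fcer1a was below the count minimum, and the 17 markers tested had a median of -0.46, with 4 lower at an unadjusted p under 0.05, where 5.23% of all genes were. When the deep libraries were included the median was 0.058, with 10 of 19 positive and 0 lower at an unadjusted p under 0.05, so the direction was lost. Without P815-IFNG light 1 the median was -1.01. Their summed level was 2559 to 2836 CPM in the shallow libraries and 13076 CPM in the deep one. T cell and cytotoxic markers had a median of -0.30 over 23. They summed to 370, 422 and 366 CPM in P815-IFNG, with the deep library last, and to 387 to 457 CPM in P815-M. Macrophage markers had a median of 0.13 over 17. They summed to 3112, 2355 and 1077 CPM in P815-IFNG, with the deep library last, and to 2978 to 3175 CPM in P815-M. Medians were -0.24 over 7 B cell, -0.10 over 5 neutrophil, -0.42 over 11 dendritic cell, -0.14 over 16 fibroblast and -0.38 over 12 endothelial markers, with 0 called in each. With all 12 libraries the medians were -0.27 for T cell, -0.24 for macrophage, -0.83 for B cell, 0.42 for neutrophil, -0.53 for dendritic cell, -0.22 for fibroblast and -0.48 for endothelial markers, so those of macrophages and neutrophils changed sign. Keratinocyte (2 tested), erythroid (3) and sex (5) lists had 0 called.

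Skeletal muscle markers had a median of -2.97 over 18 tested, with 0 called, and summed to 217, 179 and 157 CPM in P815-IFNG and to 143, 226 and 658 CPM in P815-M. The median was -3.44 with all 12 libraries, and -0.70 with 6 of 18 positive without P815-M light 3. P815-M light 3 was the highest, with Acta1 at 93.9 CPM there and at 0 to 0.488 CPM in P815-IFNG. Adipocyte markers had a median of 1.27 over 12, with 0 called, and summed to 174, 142 and 335 CPM against 104, 119 and 141 CPM. P815-IFNG light 2 and P815-M light 3 were nearly equal, at 142.0 and 141.3 CPM. The median was 0.64 with 7 of 12 positive without P815-IFNG light 1, 0.81 without P815-M light 1 and 2.30 with all 12 libraries. In the dark the adipocyte medians between the clones were larger, at 3.79 without the deep libraries and 3.31 with them. The part of muscle and fat tissue in the results for other genes was not tested.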

How the data were processed

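RNA-seq counts of 12 subcutaneous tumors were used, from the P815-IFNG and P815-M clones in light or dark, 3 mice each. The raw counts per gene symbol were deposited by the authors, who trimmed reads with fastp, aligned them with STAR 2.7.9a to mm10 with the knock-in sequences added, and counted them with HTSeq 0.13.5 at default parameters, from a stranded mRNA kit. Their removal of mitochondrial genes and ComBat-seq adjustment are not in the deposited counts. The annotation release is not given in the sources used here.

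Rows of the 13 mitochondrial genes were left out, and genes whose counts summed to 10 or more were tested with edgeR 4.0.16 (R 4.3.3): TMM factors, 1 mean per group, the quasi-likelihood test and Benjamini-Hochberg adjustment over all genes, with 12 libraries and with the 10 shallow ones. Standard errors are the log2 fold change divided by the square root of F. The test was checked on simulated counts. Single genes were compared by two-sided exact permutation tests. Alternatives were DESeq2 1.42.0, sva 3.50.0 (ComBat-seq), other filters and scalings, a replicate block and left-out libraries. Named genes were those called, knock-ins, genes named by the study for this comparison, and the leading members of each list. Members, lists and comparisons were chosen with earlier results of these data known. The values of 1 gene that the study names are not reported here. The mice of a group are separate animals.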

Additional observations from a re-analysis of the deposited data

Results flagged for a closer look

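For 2 genes the difference between the clones in light differed from that in dark, by the test of the difference itself without the deep libraries (edgeR, 16944 genes). Apoe, a lipid carrier of macrophages and liver, had a light minus dark difference of -3.36 on the log2 scale (SE 0.46, adjusted p = 0.0350). It stood at 266, 586 and 132 CPM in P815-IFNG light and at 554, 718 and 814 CPM in P815-M light, and at 1732, 1312 and 158 CPM in P815-IFNG dark against 293, 284 and 147 CPM in P815-M dark. Rb1, the retinoblastoma tumor suppressor, had a difference of -2.69 (SE 0.39, adjusted p = 0.0398). It stood at 27.8, 33.2 and 10.1 CPM against 57.1, 57.5 and 59.5 CPM in light, and at 82.2, 49.6 and 6.63 CPM against 27.7, 13.5 and 16.0 CPM in dark. With all 12 libraries the differences were -3.23 and -2.57, and neither was called. The third P815-IFNG value in each group is the deep library, and it lies lowest of the P815-IFNG values in both genes, in light and in dark. Between the 2 deep libraries, Apoe was at 132 CPM in light and 158 CPM in dark. Rb1 was at 10.1 CPM in light and 6.63 CPM in dark there, the opposite order to the shallow P815-IFNG libraries. Rb1 overlaps an exon of Rcbtb2 on the opposite strand. Neither gene was called in light alone, and both were called higher in P815-IFNG in the dark without the deep libraries (log2 fold changes 2.65 and 1.76).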

How the results depend on the processing

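In the fit of 12 libraries, 3 genes were called, against 41 with DESeq2 (23 higher, 18 lower), 0 with only the light libraries, 82 with the library kind as a batch term (41 higher, 41 lower), 252 after ComBat-seq (131 higher, 121 lower) and 1 to 4 with a light library left out. In the fit of 10 libraries, 39 were called, 23 higher and 16 lower, against 76 with DESeq2 (38 higher, 38 lower), 257 without the filter on low totals (113 higher, 144 lower), and 17 to 32 with a light library left out. The difference between light and dark was called for 0 genes with 12 libraries (313 at an unadjusted p under 0.05), 4 with DESeq2, 2 with 10 libraries and 21 with DESeq2 on 10. The causes were not tested. Without P815-IFNG light 1, the log2 fold changes of Cxcl9 (-0.88), Nos2 (-0.52), Gbp2 (-0.26), Gbp3 (-0.26) and F830016B08Rik (-0.21) turned negative in the 10 libraries, where the highest values with a library left out were 1.99, 2.25, 2.00, 1.79 and 1.24 in the same order. Over the alternatives no called gene reversed.

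With the replicate number as a block, 4 genes were called with 12 libraries, 41 with 10 libraries and 0 with only the light libraries compared. Deviations of same-numbered libraries correlated at 0.204, 0.057 and 0.278 over 10563 genes, and P815-IFNG light 2 correlated best with P815-M light 1 (0.296), so the numbers were not taken to pair the tumors. Low total counts limit genes under about 1.21 to 1.56 CPM in shallow libraries. A lone library left in a group was assumed to vary like the others.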
